A study of Mus musculus with 27 samples.

Results

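The aminoacyl-tRNA synthetases, the enzymes that load tRNAs with amino acids, were followed across subcellular fractions of mouse embryonic stem cells. Members were chosen by name alone: every gene whose symbol was a one-letter amino acid code followed by ars, with the joined glutamyl-prolyl enzyme Eprs and the mitochondrial Ears2 and Pars2 added. This gave 37 of the 53379 genes in the deposited table. The 17 whose symbol ends in 2 (from Aars2 to Yars2) are the mitochondrial enzymes, and the other 20 (from Aars to Yars, with Farsa and Farsb as the subunits of a single enzyme) were counted as cytosolic. Gars and Kars, whose genes are known to give both the cytosolic and the mitochondrial enzyme, fall in the cytosolic class.

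E14 is an established mouse embryonic stem cell line, grown here on gelatin in medium with LIF, a cytokine that keeps the cells undifferentiated. The cells received siRNA against eGFP, which has no target in them (siGFP, the control), against Ptbp1 (siPTBP1), or against Ptbp1 and Ptbp2 together (siPTBP1+siPTBP2, here the double knockdown). The siRNA was given again after 24 hours and cells were taken at 48 hours. Ptbp1 and Ptbp2 encode polypyrimidine tract binding proteins, which bind pyrimidine-rich RNA and regulate splicing. Each treatment was split into cytoplasm (CY), nucleoplasm (NP) and chromatin (CH), and polyadenylated RNA of each fraction was sequenced with a strand-specific kit in 3 biological replicates, for 9 groups and 27 libraries. All groups share the 1 cell line, the transfections and the selection for polyadenylated RNA.

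A synthetase recognises its tRNA and its amino acid and joins them at the cost of ATP, and the charged tRNA then goes to the ribosome. Cytosolic and mitochondrial protein synthesis use separate tRNAs, so most amino acids need an enzyme for each compartment, and the mitochondrial enzymes are encoded in the nucleus and imported as proteins. Several cytosolic synthetases sit in a multi-synthetase complex held together by the scaffold proteins Aimp1, Aimp2 and Eef1e1. In many cells the factor ATF4 raises synthetase genes when amino acids are short.

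The deposited values are TPM, a length-corrected share of each library scaled to a fixed total, so a gene's value falls when other RNAs take more of the library. TPM keeps no read depth, so depth is unknown and its counting error cannot be given. Libraries held 11837 to 19509 genes at 1 TPM or more, most in CH. The share of mitochondrially encoded RNA was 9.31 to 22.5% in NP libraries, 0.511 to 1.68% in CH and 0.0416 to 0.111% in CY. The 6 nuclear RNAs listed as a check of the fractions (Malat1, Neat1 and others) were all called higher in CH than in CY, with a median difference of 4.75 (log2). Ptbp1 in CY was 549 ± 56.2 TPM in controls, 123 ± 18.1 after siPTBP1 and 142 ± 50.1 after the double knockdown (mean ± SD, n = 3, as throughout), and in CH 514 ± 156, 243 ± 50.7 and 287 ± 61.8 TPM. Ptbp2 in CY was 11.3 ± 6.76, 13.9 ± 8.99 and 5.43 ± 3.45 TPM in the same order. All 8 embryonic stem cell markers were present, with Pou5f1 at 197 TPM or more in every library; their sum in CY was 4074 to 4342 TPM in siGFP, 3223 to 3723 in siPTBP1 and 3327 to 3721 in the double knockdown, and in siGFP CH 2115 to 2377. Of 8 fibroblast markers 5 passed the expression filter (Col1a1, Col1a2, Col3a1, Thy1 and Twist2), and Postn, Dcn and Lum did not. The sum of all 8 ranged over 7.14 to 18.2 TPM for CY libraries, 31.4 to 75.9 for NP and 48.8 to 159 for CH. The part of either marker set in the differences below was not tested. In bulk samples fewer cells of a type and less RNA per cell cannot be told apart.

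Of the 37 members 27 have a promoter in the RefSeq table (GRCm38.p6, 250 bases before to 50 after the start of transcription). These were searched on both strands for TGATGNAA, the core of the C/EBP-ATF response element that ATF4 is known to bind. It was present in 5 of 13 cytosolic promoters, 0 of 14 mitochondrial promoters and 4.51% of all 27025 genes with a promoter there. The stretches are shown because the classes differ in them by sequence alone, with the match nearest the start for each gene. Each is 30 bases on the gene's own strand, with the match in capitals; TTNCATCA is the same motif read on the opposite strand.
Yars, chr4:129189895-129189924, plus strand: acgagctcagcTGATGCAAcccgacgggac
Gars, chr6:55037960-55037989, plus strand: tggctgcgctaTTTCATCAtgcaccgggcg
Aars, chr8:111033840-111033869, plus strand: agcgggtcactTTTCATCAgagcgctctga
Iars, chr13:49682126-49682155, plus strand: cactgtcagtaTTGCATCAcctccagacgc
Tars, chr15:11399655-11399684, minus strand: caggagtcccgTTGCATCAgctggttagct
These genes serve tyrosine, glycine, alanine, isoleucine and threonine. A match is a description of the sequence and not a measured binding site.

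The cytosolic mRNAs were much more abundant than the mitochondrial ones in control cytoplasm. Cytosolic members ran from 40.1 to 518 TPM (group means), with a median of 155, and mitochondrial members other than Lars2 had a median of 18.6 TPM, with the lowest at 1.23. All 37 passed the expression filter of 1 TPM in at least 3 libraries. Kars, the lysyl enzyme, was the highest cytosolic member, at 434, 599 and 519 TPM in replicates 1, 2 and 3 of siGFP CY. Sars, the seryl enzyme, followed at 391, 447 and 384 TPM, and Gars, the glycyl enzyme, at 298, 446 and 411 TPM. The libraries of these 3 genes overlap, so their order is not resolved. The lowest cytosolic members were Hars (92.0 ± 15.3 TPM), Eprs (91.0 ± 34.5) and Dars, the aspartyl enzyme (40.1 ± 21.4). Dars was 22.2, 34.3 and 63.9 TPM, and its libraries stayed below all 3 libraries of Hars.

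Among the mitochondrial members Lars2, the leucyl enzyme, stood far above the rest at 1825 ± 623 TPM and is treated on its own below. Tars2 (threonyl) was at 55.2 ± 1.05 TPM, with little spread. Nars2 (asparaginyl) at 8.15 ± 2.91, Wars2 (tryptophanyl) at 2.61 ± 0.275 and Mars2 (methionyl) at 1.23 ± 0.156 TPM were lowest, and the libraries of these 3 genes did not overlap. Summed TPM of the 20 cytosolic members was 3797 ± 544 in CY, 3245 ± 284 in NP and 4479 ± 371 in CH. The sum of the 16 mitochondrial members without Lars2 was 351 ± 36.5 in CY, 381 ± 17.4 in NP and 835 ± 72.3 in CH, so its CH libraries lay above its CY and NP libraries.

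**Figure D1:**
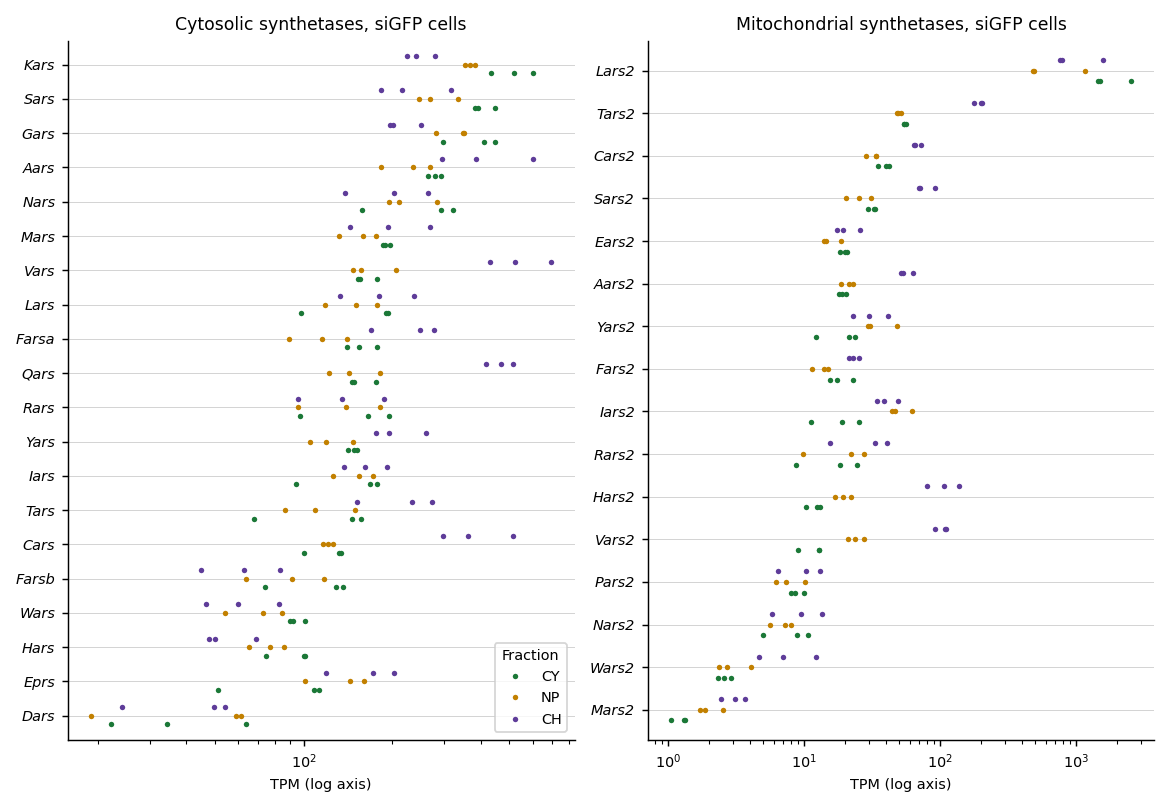
TPM (log axis) of 20 cytosolic (left) and 16 mitochondrial (right) synthetases in the 3 libraries of each fraction of siGFP cells, ordered by the CY mean, with CY green, NP ochre and CH purple. Cytosolic CY means run from 40.1 to 518 TPM, and Lars2 stands above the other mitochondrial members in each fraction.

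Each mitochondrial enzyme can be set beside the cytosolic enzyme for the same amino acid, which gives 18 pairs (Fars2 with both subunits of its counterpart, and Ears2 and Pars2 each with Eprs). The ratio of cytosolic to mitochondrial TPM in siGFP CY had a median of 8.18 and ran from 0.0879 for Lars and Lars2 to 155 for Mars and Mars2. In 12 of 18 pairs the CH minus CY difference was larger for the mitochondrial member, and in 10 of 18 the NP minus CY difference was. The pairs furthest apart in CH minus CY were Hars2 with Hars, Sars2 with Sars and Wars2 with Wars. No test was made over pairs.

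Differences between groups were tested with limma on log2(TPM + 1), and a gene is called here when its p, adjusted by the method of Benjamini and Hochberg over all 20611 genes tested, is under 0.05. A difference on this scale understates the change of low genes; folds are ratios of mean TPM. In siGFP cells 13 members were higher in CH than in CY and 5 were lower, beside 57.9% and 8.08% of all genes tested (66% in either direction). The 18 of 37 called is thus a smaller share than that of all genes. Of 17 mitochondrial members 9 were higher and 0 lower, and of 20 cytosolic members 4 were higher and 5 lower; a difference between the classes was not tested. Same-numbered replicates varied together, and with the replicate number as a block in the fit 11 mitochondrial members were higher and 1 lower, and 8 cytosolic members were higher and 6 lower, beside 65.4% and 11.5% of all genes. The calls gained were Aars, Eprs, Farsa, Tars, Rars2 and Yars2 as higher and Farsb and Lars2 as lower. The median difference was 0.78 for mitochondrial members, 0.16 for cytosolic members and 0.95 for all genes. Without Lars2 the mitochondrial median was 0.82, with 9 of 16 higher.

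**Figure D2:**
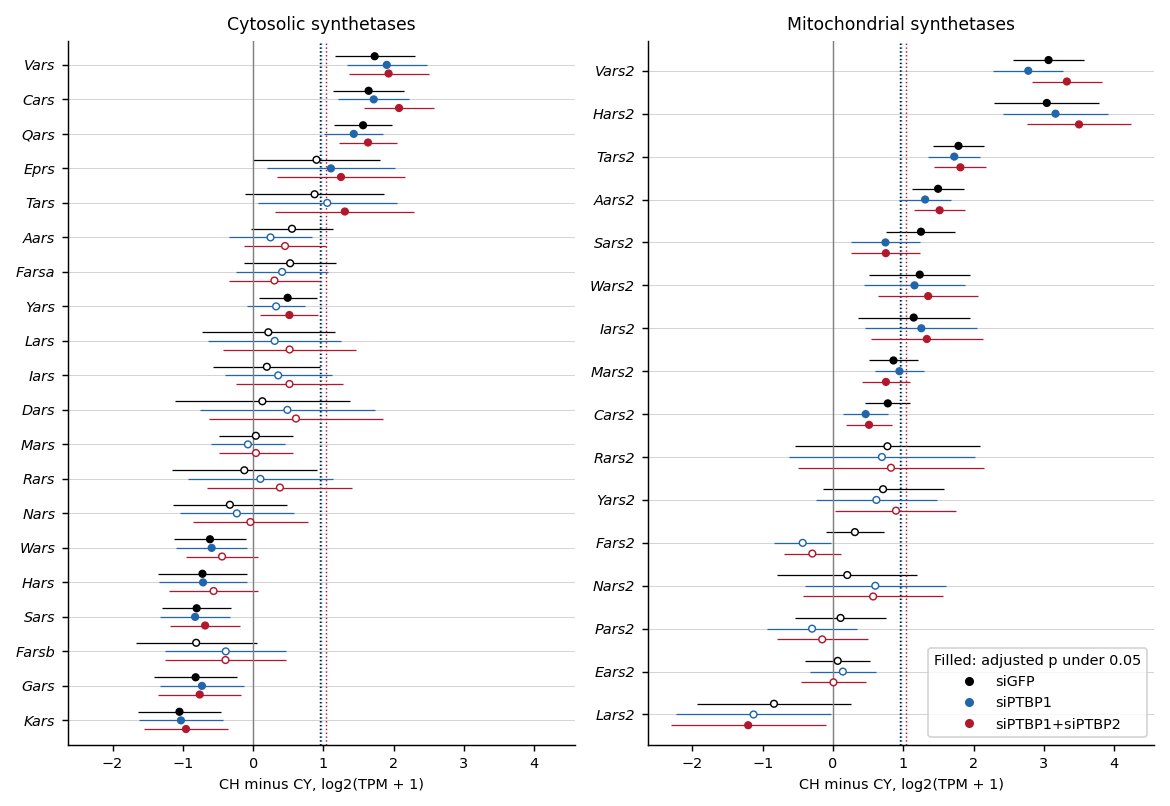
Difference between CH and CY on the log2(TPM + 1) scale for 20 cytosolic and 16 mitochondrial synthetases in each treatment, with 95% confidence intervals from limma; filled points are called, and dotted lines mark the all-gene median of each treatment. Vars2 and Hars2 lie near 3 in siGFP, Kars near −1, and most members lie to the left of the all-gene medians.

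Mitochondrial members led the difference. Vars2, the valyl enzyme (chr17:35655634-35667592), was 12.8, 12.9 and 8.99 TPM in CY and 110, 108 and 91.7 TPM in CH. Every CH library was far above every CY library, an 8.95-fold difference (3.07 ± 0.24 on the log2 scale, SE; limma adjusted p = 8.81e-10). Hars2, the histidyl enzyme, was 10.3, 12.5 and 13.1 TPM in CY and 79.6, 106 and 138 TPM in CH, also without overlap (9.02-fold, limma adjusted p = 2.59e-07). Tars2 (chr3:95739976-95760206) was 56.5, 54.6 and 54.7 TPM in CY and 176, 201 and 202 TPM in CH, with little spread in either group (3.50-fold, limma adjusted p = 2.48e-08). Aars2 (alanyl, 2.92-fold), Sars2 (seryl, 2.44-fold), Wars2 (3.07-fold), Iars2 (isoleucyl, 2.20-fold), Mars2 (2.50-fold) and Cars2 (cysteinyl, 1.73-fold) were also called higher in CH. Iars2 lost its call without CH replicate 2 (0.0518) or CY replicate 1 (0.0836). The remaining 8 mitochondrial members were not called, at differences from −0.84 (Lars2) to 0.77 (Rars2).

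The cytosolic members went both ways. Vars, the valyl enzyme (chr17:35000987-35016322), was 177, 153 and 156 TPM in CY and 695, 428 and 525 TPM in CH (3.39-fold, limma adjusted p = 1.23e-05). Cars, the cysteinyl enzyme, was 100, 134 and 132 TPM in CY and 297, 515 and 361 in CH (3.20-fold), and Qars, the glutaminyl enzyme, was 149, 176 and 146 TPM in CY and 470, 416 and 513 in CH (2.97-fold). In these 3 genes no CH library reached down to a CY library. Yars, the tyrosyl enzyme, was called at 1.43-fold, but it kept its call in only 2 of the 6 fits that leave out 1 of the libraries compared.

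The 5 members lower in CH were all cytosolic and included the 3 most abundant. Kars (chr8:111993443-112011323) was 434, 599 and 519 TPM in CY and 224, 241 and 280 TPM in CH, 48.0% of its CY level (−1.05 ± 0.29, limma adjusted p = 0.00293). Gars fell from 298, 446 and 411 TPM to 196, 202 and 250 TPM, 56.1% of CY, with no overlap. Sars fell from 391, 447 and 384 TPM to 317, 183 and 216 TPM, 58.6% of CY, also with no overlap. Hars was 74.3, 101 and 101 TPM in CY and 50.1, 47.7 and 69.1 in CH (60.5%, limma adjusted p = 0.0415), and Wars, the tryptophanyl enzyme, was at 66.7% (0.0325). The calls of Kars and Sars held whichever library was left out. That of Gars was lost without CY replicate 2 (adjusted p = 0.0641), that of Hars in 4 of 6 such fits (adjusted p up to 0.126), and that of Wars in 5 of 6.

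How many members count as higher in CH depends on what the typical gene is set to. With libraries scaled to equal median ratios, which moved the all-gene median of this comparison from 0.95 to 0.26, 4 members were higher and 15 lower in siGFP, beside 36.5% and 23.5% of all genes, and 16 of 37 changed sign. By class, 3 mitochondrial members were then higher and 4 lower, and 1 cytosolic member was higher and 11 lower. The all-gene split went from 11942 higher and 1665 lower to 7095 and 4565. Cars, Hars2, Tars2 and Vars2 kept their calls as higher on that scale, and all 5 lower members kept theirs; Vars (0.66, limma adjusted p = 0.153) and Qars (0.49, 0.131) lost theirs. The mitochondrial median was then −0.24 and the cytosolic median −0.89, both below zero. In the unscaled values 10 of 37 members (7 mitochondrial and 3 cytosolic) were above the all-gene median.

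The fraction differences recurred in the knockdowns, whose libraries are separate. In siPTBP1 13 members were higher and 5 lower in CH than in CY, beside 57.8% and 8.82% of all genes (66.6% in either direction). In the double knockdown 15 were higher and 4 lower, beside 60.4% and 9.24% (69.6%). Of 21 members called in any treatment 15 were called in the same direction in all 3. The 12 higher ones were Cars, Qars, Vars, Aars2, Cars2, Hars2, Iars2, Mars2, Sars2, Tars2, Vars2 and Wars2, and the 3 lower ones Gars, Kars and Sars. Vars2 was 7.23-fold and 10.9-fold higher in CH in siPTBP1 and the double knockdown, and Hars2 9.91-fold and 11.4-fold. Kars stood at 50.3% and 47.1% of its CY level, with 1 double-knockdown CY library at 221 TPM inside the CH range. When only the double-knockdown CY and CH libraries were fitted, 9 members were called in place of 19. The share of all genes called in that fit is not given, so the drop is no result about the members. With median-ratio scaling 4 members were higher and 14 lower in siPTBP1 (37.4% and 23.5% of all genes), and 3 and 15 in the double knockdown (37.5% and 25.5%).

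**Figure D3:**
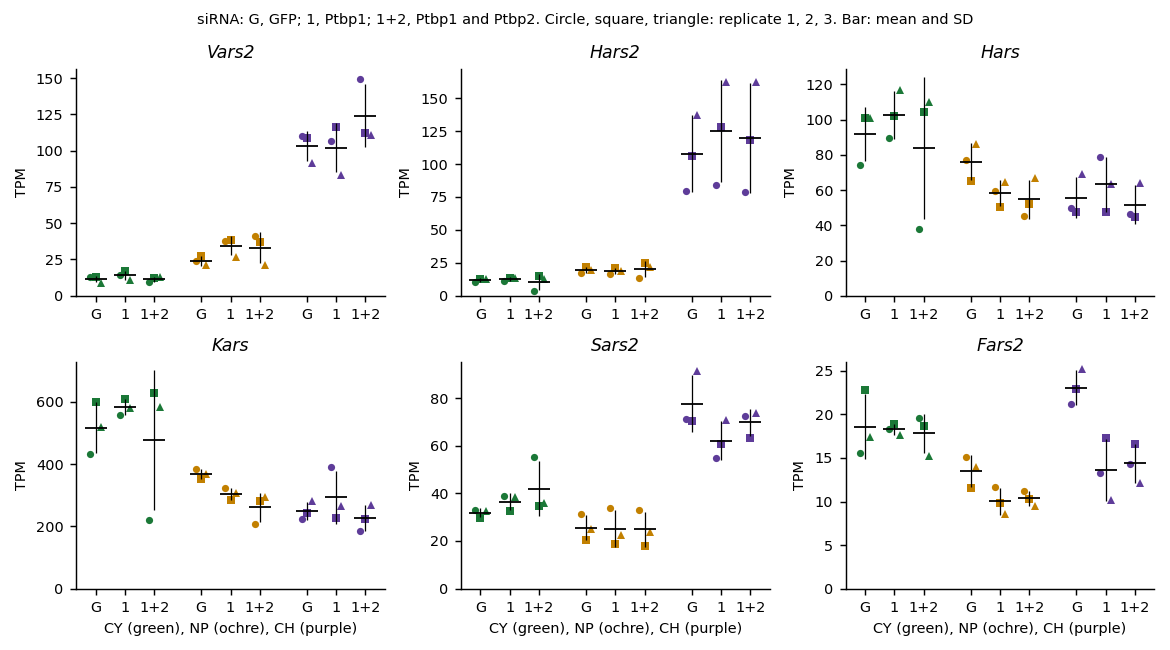
TPM of 6 synthetases in all 27 libraries, by fraction (CY green, NP ochre, CH purple) and siRNA (G, GFP; 1, Ptbp1; 1+2, both); circle, square and triangle are replicates 1, 2 and 3, and bars give the mean and SD. Vars2, Hars2 and Sars2 stand highest in CH and Hars and Kars in CY, while Fars2 in CH is between 21.2 and 25.2 TPM in siGFP and between 10.2 and 17.3 TPM in the knockdowns.

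Chromatin set against nucleoplasm gave 15 members higher and 0 lower, beside 46% and 5.48% of all genes (51.5% in either direction). The 6 cytosolic genes were Vars, Qars, Cars, Farsa, Aars and Yars, and the 9 mitochondrial genes Hars2, Vars2, Tars2, Sars2, Aars2, Wars2, Cars2, Fars2 and Mars2. Hars2 was 17.01, 21.97 and 19.4 TPM in NP against the CH values above (5.54-fold, limma adjusted p = 1.20e-05). Vars2 was 23.6, 27.7 and 21.02 TPM in NP (4.29-fold), Tars2 52.0, 48.1 and 49.4 TPM (3.88-fold), and Vars 205, 157 and 147 TPM (3.23-fold). Every NP library of these 4 genes was below every CH library. At an unadjusted p under 0.05 only Gars would be lower in CH (66.2% of NP, limma adjusted p = 0.0874); 16 of 37 members and 56.6% of all genes passed in either direction. With the replicate block 19 members were higher and 2 lower, beside 57% and 9.95% of all genes; the lower ones were Farsb (−0.51, adjusted p = 0.0218) and Gars (0.0480). Rescaled without mitochondrially encoded genes, Gars (0.0271) and Kars (0.0349) were called lower, as they were when only the groups compared were fitted (0.0495 and 0.0431). Without the replicate 1 libraries Farsb, Gars, Kars and Sars were called lower. With median-ratio scaling 7 members were higher and 8 lower, beside 27.6% and 14.5% of all genes, and the all-gene median moved from 0.68 to 0.15.

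Nucleoplasm set against cytoplasm moved few members in siGFP cells: 2 higher and 0 lower, beside 12.3% and 0.461% of all genes (12.8% in either direction). Iars2 was 11.3, 25.4 and 19.1 TPM in CY and 44.2, 62.3 and 46.8 TPM in NP (2.75-fold; 1.46 ± 0.38, limma adjusted p = 0.0114). Vars2 was 12.8, 12.9 and 8.99 TPM in CY and 23.6, 27.7 and 21.02 TPM in NP (2.08-fold, limma adjusted p = 0.00568). Neither gene's groups overlap. Iars2 lost its call without CY replicate 1 (0.0964) or NP replicate 2 (0.0679), which left 1 member called, and Vars2 lost its call with median-ratio scaling (0.62, 0.142). At an unadjusted p under 0.05, 7 members passed, 3 of them lower, where 22.6% of all genes passed.

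Both genes were also higher in NP in each knockdown: Iars2 3.15-fold in siPTBP1 and 3.48-fold in the double knockdown, and Vars2 2.44-fold and 2.91-fold. In siPTBP1 3 members were higher and 5 lower, beside 13.6% and 3.88% of all genes (17.5% in either direction), with Mars2 added to the higher ones, and Kars, Fars2, Wars, Sars and Cars2 lower. In the double knockdown 4 were higher and 7 lower, beside 15.4% and 4.66% (20%), with Mars2 and Yars2 among the higher ones, and Lars2, Farsa, Sars2, Wars, Sars, Fars2 and Cars2 lower. These counts moved most with the settings. Replicate numbers were taken as pairing the libraries, and with the replicate number as a block 6 were higher and 4 lower in siGFP (23.5% and 4.74% of all genes), 4 and 15 in siPTBP1 (22.2% and 13.5%), and 6 and 12 in the double knockdown (25.7% and 12.5%). Without the replicate 1 libraries 9, 22 and 23 members were called in siGFP, siPTBP1 and the double knockdown, beside 21.5%, 31.7% and 32.7% of all genes. Leaving out 1 library at a time gave 3 to 12 members in siPTBP1. The count was 3 without CY replicate 1 or NP replicate 3. It was 4 without CY replicate 3 or NP replicate 2, and 5 without CY replicate 2. In the double knockdown such fits gave 4 to 13 members (4 without NP replicate 2 or 3). The shares of all genes called in the fits with 1 library left out are not given.

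The 13 mitochondrially encoded mRNAs were all called higher in NP than in CY in siGFP, with a median difference of 7.70. All mitochondrially encoded RNA together took 9.68 to 15.6% of NP libraries in siGFP, 9.31 to 20.2% in siPTBP1 and 15.0 to 22.5% in the double knockdown. When TPM was rescaled without mitochondrially encoded genes, 3 members were higher and 0 lower in siGFP (15.2% of all genes called), 3 and 1 in siPTBP1 (17.5%), and 5 and 1 in the double knockdown (21%). Of the 5 and 7 lower calls in the knockdowns 1 each, Fars2 and Lars2, was kept on that scale, as were all the higher calls.

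Several members lie head to head with another gene. Hars and Hars2 start 197 bases apart on opposite strands and overlap; in CH Hars was at 60.5% of its CY level and Hars2 at 9.02-fold. The 2 genes overlap, and the sources used here do not say how strand was used in quantification. Reads in the shared stretch therefore cannot be assigned with certainty. The same holds for other members that overlap a gene on the opposite strand, among them Vars2 (with Gm20483) and Iars2 (with Rab3gap2). Sars2 (chr7:28741992-28753871) starts 172 bases from Mrps12 by GENCODE, which encodes a protein of the small mitochondrial ribosomal subunit, and these genes do not overlap. Sars2 was 33.1, 29.7 and 32.6 TPM in CY and 71.4, 70.2 and 91.4 TPM in CH (2.44-fold, limma adjusted p = 9.40e-05). Mrps12 was 151, 123 and 133 TPM in CY and 108, 47.6 and 63.4 TPM in CH (53.9%, limma adjusted p = 0.0330). In unscaled TPM the libraries of each gene separated by fraction, in opposite directions. With median-ratio scaling Sars2 was not called in siGFP (0.20, limma adjusted p = 0.657). Over all settings tried its lowest CH minus CY difference was −0.23 in siPTBP1 and −0.41 in the double knockdown.

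The sequence shown lies between the starts of Sars2 and Mrps12, from the GENCODE start of Mrps12 to the RefSeq start of Sars2. It covers chr7:28741821-28741967 (GRCm38.p6, RefSeq promoter table, plus strand, 147 bases, 49.7% GC), with ATTGG, the reverse complement of the CCAAT box, in capitals.
Sars2 to Mrps12: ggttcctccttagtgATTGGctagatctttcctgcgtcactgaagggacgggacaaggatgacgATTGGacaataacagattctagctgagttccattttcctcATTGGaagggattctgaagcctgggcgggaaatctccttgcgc
The motif occurs 3 times, read as ATTGG on the strand of Sars2 each time. Among all 27025 genes with a promoter in RefSeq, 27.3% hold ATTGG or CCAAT at least once in the same length before the start, and 1.35% hold it at least 3 times. The other neighbours gave mixed values in CH against CY. S100pbp, 33 bases from Yars, was higher in CH by 1.09 (log2) where Yars was higher by 0.49. Orc3, 13 bases from Rars2, was called at 2.29 where Rars2 (0.77) was not. Terf2ip, 75 bases from Kars, was not called (0.19). Wdr25, which overlaps Wars and starts 543 bases from it, was called at 0.57. Whether a member and its neighbour differed from each other was not tested.

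Lars2 did not behave like the other members. In siGFP replicates 1, 2 and 3 it was at 2544, 1498 and 1435 TPM in CY, at 1166, 486 and 481 TPM in NP, and at 1579, 790 and 763 TPM in CH. The replicate 1 library was the highest of its group in each of the 9 groups. Its level followed Mir6236, an annotated microRNA gene listed at up to 83082 TPM, in every library: the ratio of Lars2 to Mir6236 stayed between 3.16 and 4.65%, a 1.47-fold range, while Lars2 itself ranged from 293 to 3079 TPM. Of the 14998 genes that passed the expression filter and were above 0 in all 27 libraries, Lars2 had the steadiest ratio to Mir6236. The next gene had a range of 1.56-fold and the median gene 38.0-fold. Among the members the next steadiest ratio was that of Sars, at 5.34-fold. The part of Mir6236 reads in the Lars2 value was not tested. For this reason class values are also given without Lars2.

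**Figure D4:**
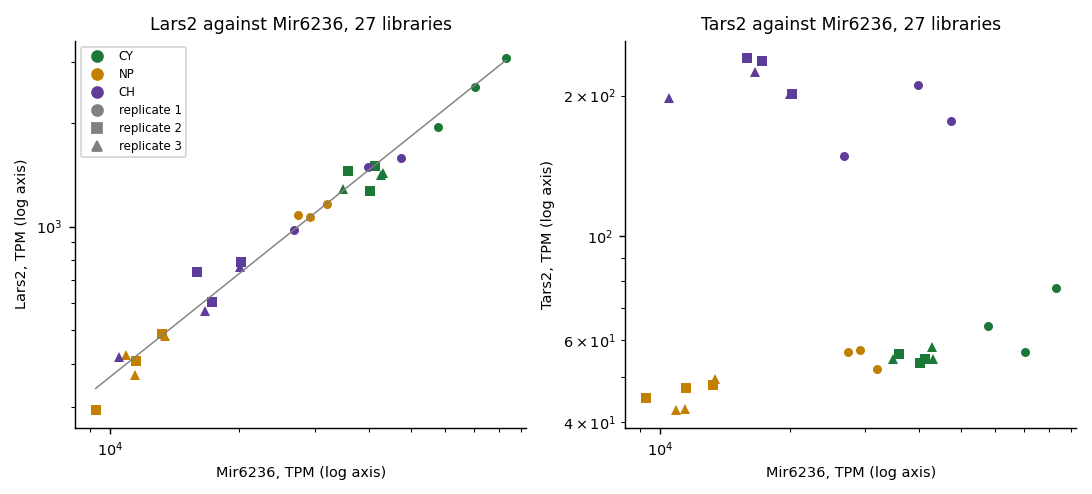
TPM of Lars2 (left) and, for comparison, Tars2 (right) against TPM of Mir6236 in the 27 libraries (log axes), coloured by fraction with the replicate as the symbol; the line marks the median ratio of Lars2 to Mir6236. Lars2 lies along the line between 293 and 3079 TPM and Tars2 shows no such line.

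Properties that the choice of members did not use were set beside the CH minus CY difference in siGFP: 7 features of the GENCODE M21 annotation, to which all 37 members matched. The count of retained intron transcripts was singled out after the values were seen. The number of transcripts annotated as retained intron, meaning a transcript model that keeps an intron, went with the difference among cytosolic members (Pearson r = 0.82, Spearman rho = 0.85, n = 20 genes; without Qars, which has the most such transcripts, rho = 0.83). Genes are not independent replicates, share the same 6 libraries, and no p is given. The 5 cytosolic genes with 1 such transcript (Dars, Farsb, Hars, Kars, Sars) had a median of −0.80, the 8 genes with 2 to 4 a median of 0.12, and the 7 genes with 5 to 12 (Aars, Cars, Eprs, Nars, Qars, Tars, Vars) a median of 0.90. Nars, at −0.33 with 5 such transcripts, was the lowest of the last group. Among mitochondrial members rho was 0.16 (n = 17; 0.34 without Lars2), and over 14203 protein-coding genes 0.24. The number of all annotated transcripts gave rho = 0.63 for cytosolic members, and across them it went with the retained intron count (rho = 0.82). Gene-level TPM does not tell spliced from unspliced RNA, so intron retention itself was not measured here.

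**Figure D5:**
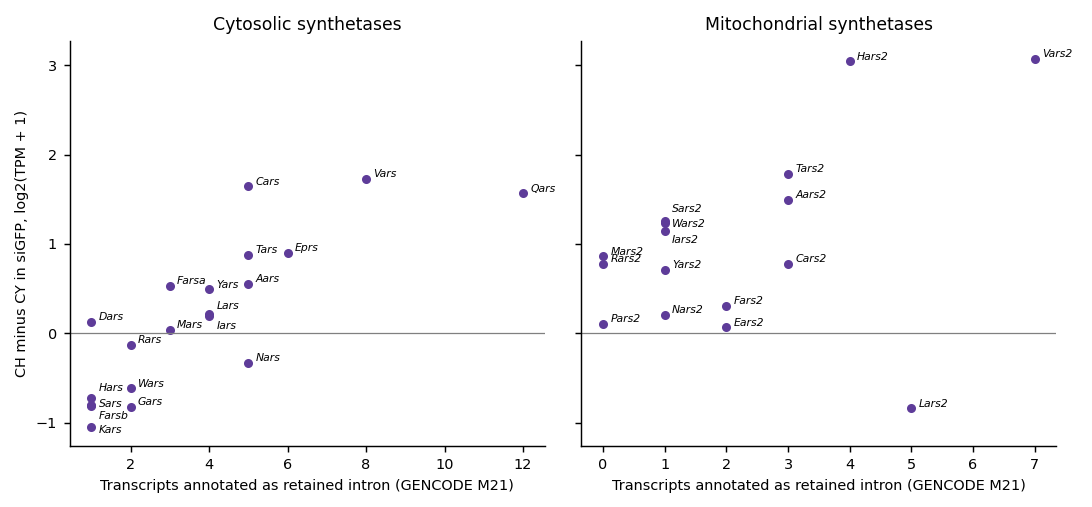
CH minus CY difference in siGFP on the log2(TPM + 1) scale against the number of transcripts annotated as retained intron in GENCODE M21, with 1 point per gene for 20 cytosolic (left) and 16 mitochondrial (right) synthetases. Cytosolic genes with 1 such transcript lie between −1.05 and 0.13 and those with 5 or more between −0.33 and 1.73; mitochondrial genes show no such order.

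Replicate 1 differed from the other replicates in a way that the members showed clearly. In siGFP CY the replicate 1 library was the lowest of the 3 for 22 of 37 members and the highest for 9. The difference between replicate 1 and the mean of the others went with the GC content of the longest coding transcript: Spearman rho was 0.89 over cytosolic members, 0.69 over mitochondrial members and 0.55 over 14203 protein-coding genes. Rars2 (44.1% GC) was lower in replicate 1 by 1.21 (log2), Tars (46.6%) by 1.15 and Eprs (47.2%) by 1.10, while Farsa (56.6%) was higher by 0.27. The median-ratio size factors of the 3 CY replicate 1 libraries were 0.463 to 0.659, below 0.777 to 0.934 in the other CY libraries. All 3 treatments and fractions have a replicate 1, so replicate 1 is spread evenly over the groups.

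Neither knockdown gave a called synthetase in any fraction in the limma fit without the replicate block. With the block Fars2 alone was called, in CH in both knockdowns, beside 2.45% and 2.12% of all genes. The counts that follow are without the block unless stated. For siPTBP1 against siGFP 0 of 37 members were called in CY, NP and CH, beside 0.228%, 0.16% and 0.398% of all genes. For the double knockdown the count was also 0 in each, beside 0.243%, 0.155% and 0.427%. The 2 sets of comparisons share the siGFP libraries. At an unadjusted p under 0.05 the members numbered 0, 0 and 1 for siPTBP1 and 1, 0 and 1 for the double knockdown, where 4.41 to 6.94% of all genes passed. The 95% confidence interval of a member's difference reached 0.322 to 1.32 (median 0.630, log2) to either side. These intervals are not adjusted for the number of genes tested. A call needed a larger change than that, so changes beyond the interval could also go uncalled in this design. The double knockdown against siPTBP1 gave 0 members by limma in CY, NP and CH (0%, 0.00485% and 0.107% of all genes), also at an unadjusted p under 0.05 and with the replicate block. The test of whether the CH minus CY difference itself changed gave 0 members for siPTBP1 (0.0437% of all genes) and 0 for the double knockdown (0.0582%), and 1 each at an unadjusted p under 0.05.

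Fars2, the mitochondrial phenylalanyl enzyme (chr13:36117412-36726280), came nearest to a call. In CH it was 21.2, 22.9 and 25.2 TPM in siGFP, 13.3, 17.3 and 10.2 TPM in siPTBP1, and 14.3, 16.6 and 12.2 TPM in the double knockdown. All 6 knockdown libraries were below all 3 control libraries, at 58.8% and 62.2% of the control mean. The difference was −0.75 ± 0.20 in siPTBP1 (limma adjusted p = 0.114; with the replicate block 0.0158) and −0.66 ± 0.20 in the double knockdown (0.204; with the block 0.0367). With the block it was the only member called in either comparison, beside 2.45% and 2.12% of all genes. Its CY means were 18.6 TPM in siGFP, 18.3 in siPTBP1 and 17.8 in the double knockdown, and its NP means 13.5, 10.03 and 10.4 TPM. The difference between its CH and CY changes was not called (−0.74 and −0.61, limma adjusted p = 1 in both; with the block 0.364 and 0.481). Fars2 overlaps Lyrm4 on the opposite strand, so its reads carry the same uncertainty as those of Hars and Hars2.

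The other members with the smallest p values moved less. As they and Fars2 were picked by p, a lack of overlap is no result about them. The share of all genes without overlap is not given. In CY Cars2 was 40.1, 34.8 and 41.96 TPM in siGFP, 51.6, 41.8 and 49.6 in siPTBP1 and 51.6, 47.9 and 50.6 in the double knockdown. Its double-knockdown libraries did not overlap siGFP (0.36, limma adjusted p = 0.910), while those of siPTBP1 did (0.28, 1). Sars2 and Cars in double-knockdown CY stood at 132% of siGFP without overlap and at 81.3% with overlap. Vars in siPTBP1 CY stood at 79.1% without overlap, and Vars2 at 122% with overlap in CY and 143% in NP. In NP Cars was 126, 117 and 121 TPM in siGFP, 101, 91.6 and 90.9 in siPTBP1 and 84.9, 92.0 and 86.3 in the double knockdown; the knockdown libraries were all below the control ones, and no call was made (−0.36 and −0.46, limma adjusted p = 1 for both). Kars in NP was at 71.0% of siGFP in the double knockdown, and Fars2 in NP at 74.0% and 76.5% in siPTBP1 and the double knockdown. In CH Iars2 and Sars2 in siPTBP1 were at 141% and 80.0% of siGFP, with overlapping libraries, and Tars2 and Vars2 in the double knockdown at 116% and 120%. The Tars2 and Vars2 libraries did not overlap those of siGFP, for Vars2 by a narrow margin (lowest 110.65 TPM against 110.36 in siGFP). All of these but Cars2 in double-knockdown CY had an adjusted p of 1 by limma.

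As a class the cytosolic members leaned one way in nucleoplasm without a single call. In siPTBP1 20 of 20 had a negative difference from siGFP, with a median of −0.24 beside −0.01 for all genes. In the double knockdown 19 of 20 did, with a median of −0.32. The lean was not limited to NP: in double-knockdown CY 17 of 20 were below the all-gene median of 0. In siPTBP1 CY 10 of 20 were below the all-gene median. In CH 8 of 20 were below it in siPTBP1 and 13 of 20 in the double knockdown. The summed cytosolic TPM in NP was 3308, 2934 and 3492 in siGFP, 2956, 2436 and 2852 in siPTBP1, and 2528, 2428 and 2802 in the double knockdown; the first 2 groups overlap and the double knockdown lies below siGFP. With the mitochondrially encoded RNAs, whose share was higher in double-knockdown NP, taken out of the scaling, the medians were −0.19 (19 of 20 negative) and −0.22 (19 of 20). The members share libraries, so these counts are no test. The 17 mitochondrial members had 8 positive and 9 negative differences in siPTBP1 NP.

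Genes that work with the synthetases were taken from the lists given with the processing. In siGFP CH against CY, the comparison of this paragraph, 57.9% of all genes were called higher and 8.08% lower. There 2 of 3 scaffold proteins of the multi-synthetase complex were lower (Eef1e1 by −1.22 and Aimp2 by −0.87). Aimp1 was at −1.01 without a call. The 8 synthetases of the complex had 1 higher (Qars) and 1 lower (Kars), and the 12 cytosolic members outside it 3 higher and 4 lower. Of 5 cytosolic elongation factors 4 were lower (Eef1b2 −1.55, Eef1d −1.25, Eef1a1 −1.20). Of 9 mitochondrial translation factors 3 were higher (Mtrf1l 1.94, Mtif2 1.74, Gfm2 1.41) and 3 lower. Of 4 enzymes that finish mitochondrial glutaminyl- and formylmethionyl-tRNA, Mtfmt, the formyltransferase, was higher (1.48) and 0 were lower. Of 4 genes of the selenocysteine route 2 were higher (Secisbp2 2.28, Sepsecs 1.52) and Eefsec was lower (−0.94). Of 5 tested synthetase-like and editing proteins 3 were lower (Dtd1 −1.19, Prorsd1 −1.14, Dtd2 −0.95), and of the 2 tRNA exporters Xpo5 was higher (0.57).

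ATF4 targets outside the family were split: of 16, 4 were higher in CH than in CY and 6 lower. All genes gave 57.9% and 8.08%. The amino acid transporter genes Slc7a11 (2.76), Slc3a2 (1.67) and Slc7a5 (1.38) were the furthest up. In NP against CY the same transporters were the 3 of 16 called higher (1.88, 2.01 and 1.95), and Gfm2 was the 1 of 9 mitochondrial translation factors (1.07). Of all genes 12.3% were called higher there. In CH against NP 1 of 16 ATF4 targets, 1 of 4 genes of the formyltransferase list and 2 of 4 of the selenocysteine route were higher. There 1 of 5 elongation factors and 2 of 5 synthetase-like proteins were lower, beside 46% of all genes higher and 5.48% lower. By fold type, class I synthetases had 9 higher and 1 lower of 18 in CH against CY. Class II had 4 higher and 4 lower of 18, beside the same 57.9% and 8.08% of all genes. Eprs was left out because it joins both types. No gene of these lists was called in a knockdown comparison with siGFP in the limma fit without the replicate block. With the replicate block 1 of 16 ATF4 targets was higher in CY in both knockdowns, which share the controls, and of 8 embryonic stem cell markers 1 was lower in NP in each knockdown and 3 in CY in the double knockdown. The block called 1.83% of all genes in CY and 1.88% in NP for siPTBP1, and 2.65% and 1.84% for the double knockdown.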

How the data were processed

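Polyadenylated RNA of 3 fractions and 3 treatments was measured in 27 libraries, 3 biological replicates a group per the series' design text. The authors deposited TPM per gene in 1 table; STAR, kallisto and mm10 are named in the submitters' processing notes, with no version, and the sources used here do not state how TPM was computed. All 27 value columns matched the labels. TPM keeps no depth, so the precision rests on the replicates alone.

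Members were found by symbol, with no symbol shared by another identifier. Genes with TPM of at least 1 in at least 3 libraries (20611) were fitted as log2(TPM + 1), with 1 mean per group over all 9 groups, in limma 3.58.1 (R 4.3.3; eBayes with trend and robust settings, 18 residual degrees of freedom, two-sided, Benjamini-Hochberg over all genes, threshold 0.05), for 18 contrasts. The fit was tested on simulated data with known changes. The 15100 genes at 0 in every library stayed out.

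Members and companion lists were chosen with earlier results of these data known. Library values are given for the 3 highest and 3 lowest members of each class in siGFP CY, the 4 called members with the largest difference in each direction for each siGFP fraction comparison, the 3 members with the smallest p for each knockdown comparison, and Gars and Kars (1 gene is not reported here by name, though class counts and medians include it); Cars, Qars, Sars2 and Mrps12 were added after their values were seen. Companion genes are named among the 3 largest differences of a list. The lists are the synthetases of the complex, its scaffold, class I and II synthetases, mitochondrial tRNA amidotransferase and formyltransferase, synthetase-like proteins, the selenocysteine route, elongation factors, mitochondrial translation factors, tRNA export, ATF4 targets, nuclear RNAs, mitochondrially encoded mRNAs, and embryonic stem cell and fibroblast markers.

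Same-numbered libraries were treated as pairs because of how they vary, as no label explains the numbering: the deviations from group means of the 108 same-number pairs correlated at 0.130 or more (median 0.365; other pairs −0.213), and 27 of 27 libraries were closest to their own number. Alternatives were a pseudocount of 0.1, no filter (38279 genes), median-ratio scaling over 15813 genes, the replicate number as a block (16 degrees of freedom), a fit of the groups compared alone, leaving out the replicate 1 libraries, and leaving out each library in turn. Rescaling without mitochondrially encoded genes, and the class without Lars2, were chosen after seeing the data. Coordinates are 1-based GRCm38 from GENCODE M21; sequences are from RefSeq promoters of GRCm38.p6.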

Additional observations from a re-analysis of the deposited data

How the results depend on the processing

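Of 246 recomputed counts of called synthetases 223 stayed within 1.5 times the reported count and 23 did not. The 246 include the comparisons between treatments, reported at 0, where most counts stayed at 0. A count here is the total over both directions. The shift of siGFP CH against CY with median-ratio scaling, from mostly higher to mostly lower, is therefore among the 223. Of 416 recomputed values of the gene and comparison pairs chosen by the naming rule 404 kept their side of the threshold. Another 10 lost a call, 2 gained one and 0 changed sign. NP against CY was the least stable comparison. In siGFP, with 2 members called, the replicate block gave 10, leaving out the replicate 1 libraries 9, and leaving out 1 library 1 to 3. In siPTBP1, with 8 called, the block gave 19, rescaling without mitochondrially encoded genes 4, no replicate 1 libraries 22, the groups alone 5, and leaving out 1 library 3 to 12. In the double knockdown, with 11 called, no filter gave 5, the block 18, rescaling 6, no replicate 1 libraries 23, the groups alone 1, and leaving out 1 library 4 to 13. For CH against CY in the double knockdown, with 19 called, the groups alone gave 9. The shares of all genes for no filter, the groups alone and 1 library left out are not given. Counts under those settings are thus no result about the members. The block raised the 0 of CH in siPTBP1 against siGFP to 1, and that of the double knockdown to 1; both are Fars2. The cause was not tested. Leaving out 1 library changed the CH against CY counts to 14 to 17 in siGFP, 14 to 18 in siPTBP1 and 15 to 18 in the double knockdown, and CH against NP to 12 to 15. All the knockdown counts stayed at 0 when a library was left out. Among other members called, median-ratio scaling changed the sign of Yars (to −0.58) and Cars2 (−0.27) in siGFP CH against CY and of Mars2 (−0.05) in siGFP CH against NP. With the same scaling Cars2, called higher in CH than in CY in the double knockdown, was called lower. The block changed no other total of members called, over both classes and directions, by over 1.5 times; by class and direction, cytosolic members higher in siGFP CH against CY went from 4 to 8, mitochondrial members lower there from 0 to 1, and members lower in CH against NP from 0 to 2. TPM gives no depth, so what depth limits cannot be stated.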
